A study of Arabidopsis thaliana with 14 samples.

Results

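Transcript signals of 4 Arabidopsis thaliana genes linked to carbon starvation were followed across all 7 groups of a seedling array study: MCCA (AT1G03090), IVD (AT3G45300), AKINBETA1 (AT5G21170) and ATG8E (AT2G45170). The genes were taken by name, as listed members of leucine breakdown, the SnRK1 kinase and autophagy, with earlier results of these data known. Shares over all probe sets set beside them therefore describe and do not test. Each has 1 named probe set, so 4 of the 22810 probe sets on the array are described, and all 4 were among the 17787 tested. The study concerned the part brassinosteroid hormones play in the light development of seedlings.

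Total RNA of seedlings was hybridised to 14 one-colour arrays, 2 for each group. The mutant det2, brassinosteroid deficient according to the labels, was sampled at 14 days after growth in light followed by 8 h of darkness, at 7 days after growth in light, and at 7 days after growth in the dark. Wild-type Col seedlings, all 7 days old and dark-grown, were sampled after BL (brassinolide, an active brassinosteroid) and 2 h of light, after 2 h of light alone, after BL in the dark, and in the dark without treatment. The labels write BL in the titles of the dark samples and BR in the titles of the light samples and in the treatment text, and both are called BL here. The BL dose, the light intensity and the hour of sampling are not given in the sources used here. Nothing in the labels says that the 2 replicates of a group came from separate cultures, so p-values measure the spread between arrays, which may be technical.

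Leucine is broken down in mitochondria. After transamination and oxidative decarboxylation, isovaleryl-CoA dehydrogenase (IVD) passes electrons to the respiratory chain, and methylcrotonyl-CoA carboxylase, of which MCCA encodes the biotin-carrying subunit and MCCB the other, acts on the product. Plants are known to use this pathway as a source of energy when darkness or lack of sugar leaves little carbohydrate. SnRK1 is a kinase complex of low energy status, with a catalytic alpha subunit and regulatory beta and gamma subunits, and AKINBETA1 encodes a beta subunit. ATG8 proteins are ubiquitin-like and are joined to lipid on the autophagosome membrane, the vesicle that carries cell contents to the vacuole for breakdown. ATG8E is a member of this family.

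Arrays had median signals of 187.65 to 218.8, and the 2 replicates of a group had a correlation of 0.963 to 0.981 (log2 scale, all tested probe sets). Their median absolute log2 difference was 0.140 to 0.190 in det2 groups and 0.228 to 0.285 in wild-type groups. Standard errors and p-values below come from 1 spread per probe set shared by both genotypes, except where a fit of 1 genotype is named. They therefore do not follow this difference. The summed signal of 8 genes of photosynthesis was 95131 to 98490 in light-grown det2 and 63995 to 65688 after its 8 h of darkness, against 45924 to 48634 in dark-grown det2. In wild type it was 55150 to 56352 with BL and light and 50841 to 53313 with light, against 22835 to 23874 with BL in the dark and 20134 to 27494 in the dark. None of the 8 was at 0 in any group. The summed signal of the root hair genes EXPA7 and EXPA18 was 481.96 to 594.9 in dark-shifted det2 and 633.1 to 668.8 in light-grown det2, against 142.4 to 192.7 in dark-grown det2. In wild type it was 92.3 to 228.5 with BL and light, 370.9 to 494.7 with light, 86.4 to 343.4 with BL in the dark and 377.9 to 794.6 in the dark. The mean signal over all probe sets was 679.1 to 703.1 on det2 arrays and 622.6 to 648.8 on wild-type arrays. No source used here says whether the genotypes were hybridised together, so genotype and array run cannot be told apart.

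All 4 genes had their highest group mean in det2 moved from light to darkness and their lowest in BL-treated wild type moved to light. Of all probe sets tested, 18.7% had the same highest group, 11.3% the same lowest group and 3.55% both. Between these extreme groups the ratio of means (each plus 16) was 13.2 for MCCA, 7.07 for AKINBETA1 and 3.71 for IVD, with ATG8E between the last 2. In bulk seedlings, fewer cells of a type and less RNA per cell cannot be told apart.

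MCCA read 4651 and 4459 signal units in dark-shifted det2, 958.2 and 913.3 in light-grown det2, and 3179.7 and 3203 in dark-grown det2. In wild type it read 397.0 and 265.8 with BL and light, 904.1 and 427.9 with light, 2684 and 1174 with BL in the dark, and 3426 and 1336 in the dark. The dark groups of both genotypes were high and every light group low, with no overlap between them. Among neighbours in the order of means, dark-grown det2 overlapped with untreated dark wild type, and that group with BL-treated dark wild type. Replicate 1 was 1.49 to 2.56 times replicate 2 in the 4 wild-type groups, whereas the det2 replicates differed at most 1.05 times. Replicate 1 was also the higher in all 4 wild-type groups for IVD and AKINBETA1, as for 19.3% of probe sets, and the lower in all 4 for ATG8E, as for 13.5%.

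IVD read 2460.4 and 2481 in dark-shifted det2, 798.9 and 943.1 in light-grown det2, and 2022 and 1837 in dark-grown det2. Its wild-type values were 658.5 and 650.05 with BL and light, 1277 and 1150.2 with light, 1646 and 1505.5 with BL in the dark, and 2587 and 1695 in the dark. Light groups were again below all dark groups. The 3 highest groups overlapped as neighbours, with the mean of untreated dark wild type (2141 ± 630, SD, n = 2) between those of dark-shifted det2 (2471 ± 14.8) and dark-grown det2 (1930 ± 131). The other neighbours in the order of means did not overlap.

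AKINBETA1 read 4723 and 4432 in dark-shifted det2, 1143.5 and 1184 in light-grown det2, and 2806 and 2596 in dark-grown det2. The wild-type arrays gave 682.7 and 585.1 with BL and light, 2312 and 1041 with light, 1678 and 1329.9 with BL in the dark, and 3351 and 1813 in the dark. The mean of wild type in light without BL (1676 ± 899) stood above that of BL-treated seedlings kept dark (1504 ± 246), and its arrays overlapped with those of its neighbours on either side in the order. Dark-shifted det2 lay above every other array and BL with light below every other array.

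ATG8E read 3573 and 3435 in dark-shifted det2, 1869 and 1639 in light-grown det2, and 2355 and 2233 in dark-grown det2. Wild-type signals were 720.9 and 923.4 with BL and light, 945.4 and 1101 with light, 1109 and 1141 with BL in the dark, and 1173 and 1252 in the dark. Here the order followed genotype first, since all 6 det2 arrays were above all 8 wild-type arrays, though genotype and array run cannot be told apart. Within each genotype darkness was above light. No neighbouring groups overlapped. Within wild type, BL in the dark against no BL and BL with light against light alone did not pass the test given further on, and BL in the dark was not tested against light alone.

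**Figure D1:**
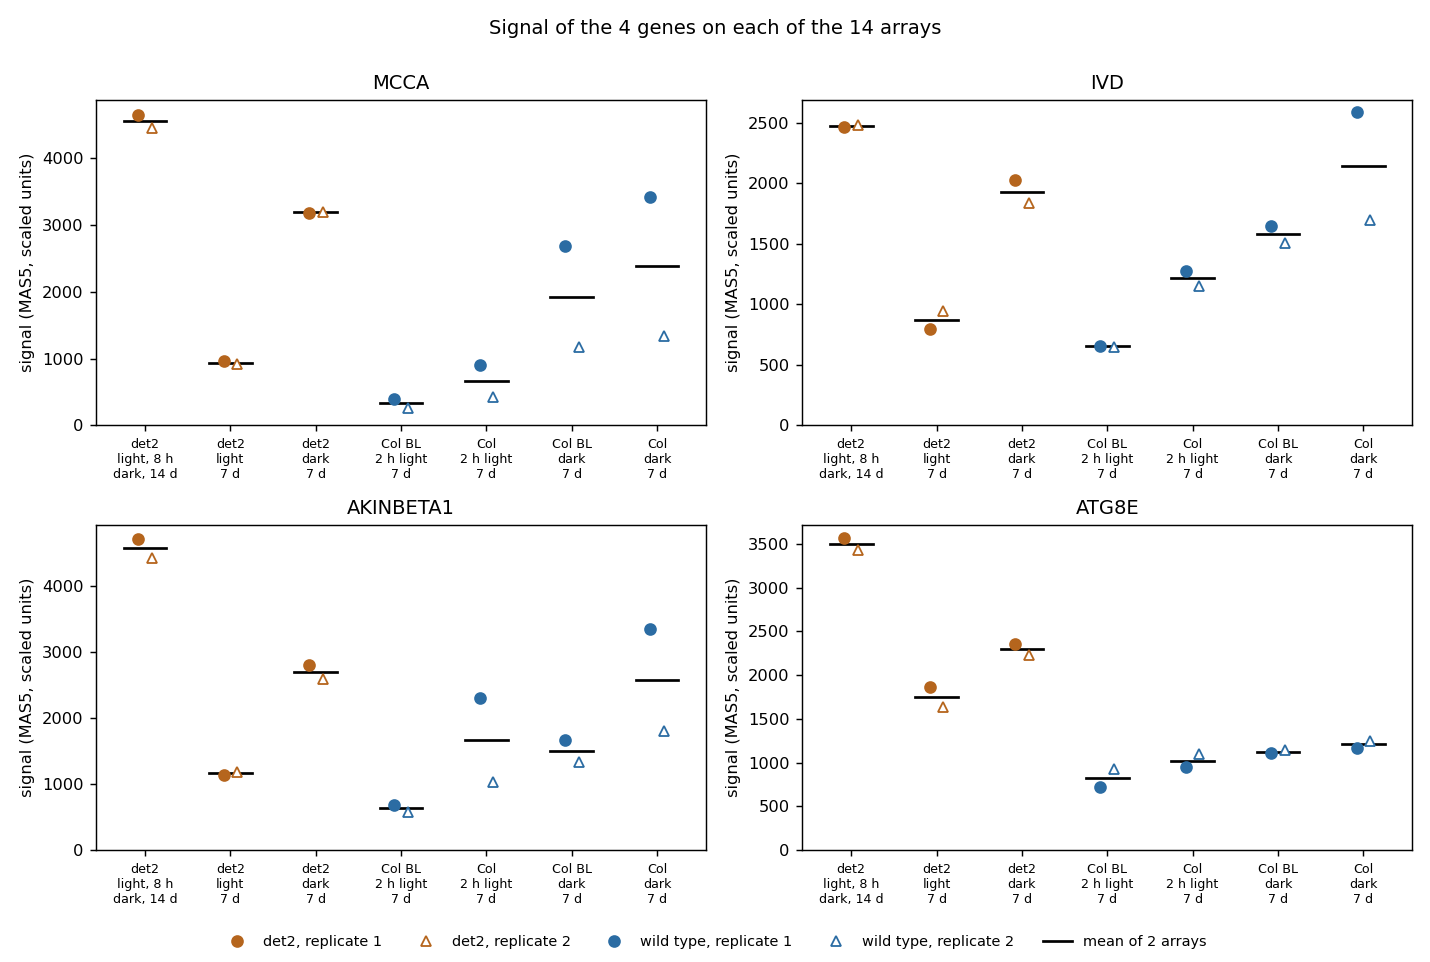
Signal of MCCA, IVD, AKINBETA1 and ATG8E (y axes, scaled MAS5 signal units, linear from 0) on each of the 14 arrays by group (x axes, with age in days). Filled circles are replicate 1, open triangles replicate 2 and bars the mean of 2 arrays. For MCCA and IVD every dark array is above every light array, for AKINBETA1 the 2 h light array at 2312 is above BL-treated dark arrays, and ATG8E is higher on all 6 det2 arrays than on all 8 wild-type arrays.

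Light-grown det2 moved to darkness for 8 h had higher signals of all 4 genes than det2 left in light. Fold changes are given on the scale of log2(signal + 16), where 16 is a constant that damps noise at low signal, and a change passed when its adjusted p from limma was under 0.05. MCCA rose 4.80-fold (log2 change 2.26 ± 0.44, SE, adjusted p = 0.00495), AKINBETA1 rose 3.89-fold (1.96 ± 0.32, adjusted p = 0.00171), IVD rose 2.81-fold (1.49 ± 0.18, adjusted p = 0.000238) and ATG8E rose 1.99-fold (0.99 ± 0.15, adjusted p = 0.00108). Of all tested probe sets 5.98% rose and 6.40% fell, 12.4% in either direction. The groups did not overlap for any of the 4 genes, as for 64.1% of all probe sets. By p-value IVD ranked 130, ATG8E 299, AKINBETA1 366 and MCCA 703 of 17787. All 4 still passed with any of the 4 arrays left out, and the log2 change of MCCA then lay between 2.23 and 2.30. The dark-shifted seedlings were 14 days old and the light-grown ones 7, so darkness and age cannot be told apart.

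Light-grown det2 compared with dark-grown det2, both 7 days old, had lower signals of the 3 genes other than ATG8E. MCCA fell 3.37-fold (log2 change -1.75 ± 0.44, adjusted p = 0.00733), AKINBETA1 fell 2.30-fold (-1.20 ± 0.32, adjusted p = 0.00978) and IVD fell 2.20-fold (-1.14 ± 0.18, adjusted p = 0.000343). Across all probe sets 17.7% fell and 19.5% rose, 37.2% in either direction, so a fall was common here. The groups did not overlap for any of the 4 genes, as for 73.0% of all. ATG8E stood at -0.39 ± 0.15 (adjusted p = 0.0608) and passed when only det2 arrays were fitted (adjusted p = 0.00195). AKINBETA1 was lost without replicate 1 of dark-grown det2 (adjusted p = 0.0578) or replicate 1 of light-grown det2 (adjusted p = 0.0561). The summed signal of the 8 photosynthesis genes was on the other side from the members in both det2 comparisons. Both root hair genes rose in light-grown against dark-grown det2, EXPA7 by 2.46 and EXPA18 by 1.49, each lost without at least 2 arrays. The part of these markers in the values was not tested.

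Dark-shifted det2 was also set against dark-grown det2, with darkness of 8 h after growth in light against darkness throughout. ATG8E was 1.52-fold higher (0.61 ± 0.15, adjusted p = 0.00919). AKINBETA1 stood at 0.76 ± 0.32 (adjusted p = 0.0908), MCCA at 0.51 ± 0.44 (adjusted p = 0.415) and IVD at 0.36 ± 0.18 (adjusted p = 0.16). Of all probe sets 16.2% were higher and 13.0% lower, 29.3% in either direction. All 4 genes had groups that did not overlap, as did 70.7% of all. With det2 arrays alone all 4 passed (MCCA adjusted p = 0.000126, IVD 0.0101, AKINBETA1 1.15e-05). ATG8E was lost without replicate 2 of dark-grown det2 (adjusted p = 0.0618) or replicate 1 of dark-shifted det2 (adjusted p = 0.0694). Of the photosynthesis genes 4 of 8 were higher and 1 lower, and EXPA7 was higher (2.18 ± 0.67), lost without 3 of the 4 arrays in turn. The part of these markers was not tested, and age differed here too.

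In dark-grown wild type, MCCA and IVD fell with 2 h of light, and AKINBETA1 and ATG8E did not pass. MCCA fell 3.38-fold (-1.76 ± 0.44, adjusted p = 0.0127) and IVD fell 1.72-fold (-0.78 ± 0.18, adjusted p = 0.00819). AKINBETA1 (-0.66 ± 0.32, adjusted p = 0.175) and ATG8E (-0.24 ± 0.15, adjusted p = 0.299) did not pass, with 95% intervals of -1.35 to 0.03 and -0.57 to 0.08. Thus 2 of 4 fell, where 9.76% of all probe sets fell and 10.1% rose, 19.8% in either direction. Groups did not overlap for MCCA, IVD and ATG8E, as for 53.1% of all. The 8 photosynthesis genes all rose here, with a median log2 change of 1.30, and their part in these values was not tested. Since no wild-type seedlings were handled alike but kept dark, light cannot be told apart from the move itself.

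These calls rested on particular arrays. Leaving out replicate 1 of dark wild type lost both MCCA (adjusted p = 0.125) and IVD (0.0709), and leaving out replicate 2 of the seedlings in light lost MCCA (adjusted p = 0.116). AKINBETA1 passed without replicate 2 of dark wild type (adjusted p = 0.0454) or replicate 1 of those in light (adjusted p = 0.0103). Within replicate 1 the log2 difference of MCCA was -1.90 and within replicate 2 it was -1.61. For AKINBETA1 these values were -0.53 and -0.79, and for IVD -1.01 and -0.55. In a fit of the 8 wild-type arrays neither passed (adjusted p = 0.0598 for MCCA and 0.0519 for IVD), but both did once the replicate number was a block in that fit (adjusted p = 0.000209 and 0.0113).

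In BL-treated wild type, 2 h of light lowered MCCA, IVD and AKINBETA1. MCCA fell 5.25-fold (-2.39 ± 0.44, adjusted p = 0.00206), IVD fell 2.37-fold (-1.25 ± 0.18, adjusted p = 0.000353) and AKINBETA1 fell 2.33-fold (-1.22 ± 0.32, adjusted p = 0.0175). Of all probe sets 8.38% fell and 8.97% rose, 17.4% in either direction. Groups did not overlap for any of the 4 genes, as for 56.6% of all. The photosynthesis genes moved too, 7 of 8 higher with a median log2 change of 1.38, and their part was not tested. MCCA and IVD passed whichever array was left out. AKINBETA1 lost its call without BL-treated dark replicate 1 (adjusted p = 0.115), without either array of those in light (adjusted p = 0.054 and 0.0891), and in a fit of the 8 wild-type arrays (adjusted p = 0.079, and 0.00398 with the replicate block). ATG8E stood at -0.46 ± 0.15 (adjusted p = 0.0555, or 0.0484 with the replicate block), and passed without replicate 2 of the seedlings in light (adjusted p = 0.0227).

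BL in seedlings moved to light lowered AKINBETA1 and IVD. AKINBETA1 fell 2.42-fold (-1.28 ± 0.32, adjusted p = 0.0403) and IVD fell 1.83-fold (-0.87 ± 0.18, adjusted p = 0.0167), where 2.08% of all probe sets fell and 2.17% rose, 4.25% in either direction. MCCA stood at -0.91 ± 0.44 (adjusted p = 0.327, and 0.03 in a fit of the 8 wild-type arrays with the replicate block), and ATG8E at -0.32 ± 0.15 (adjusted p = 0.316). For all 4 genes both BL-treated arrays were below both untreated ones, as with 42.4% of probe sets apart in either direction. Both calls were lost without replicate 1 of the untreated seedlings (adjusted p = 0.287 for AKINBETA1 and 0.0999 for IVD). They were also lost without replicate 1 of the BL-treated ones (adjusted p = 0.0849 and 0.0548) or their replicate 2 (adjusted p = 0.217 and 0.0899). The log2 change of AKINBETA1 was -0.71 without replicate 1 of the untreated seedlings and -1.38 and -1.17 without the BL-treated replicates. Without replicate 2 of the untreated seedlings it was -1.85 and passed (adjusted p = 0.00445). The 2 untreated arrays differed 2.22 times from each other. AKINBETA1 also missed the threshold without the filter on low signals (adjusted p = 0.0585), under quantile normalization (adjusted p = 0.0588) and without a variance trend (adjusted p = 0.0817). In a fit of the 8 wild-type arrays the adjusted p was 0.17 for AKINBETA1 and 0.113 for IVD, and with the replicate block added 0.0106 and 0.0202. The summed root hair signal was also lower with BL than without it, on all arrays in light and in the dark, and its part in these values was not tested.

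BL in seedlings kept dark gave lower mean signals of all 4 genes, where 43.6% of all probe sets had a log2 change below 0. In limma 0 of the 4 passed, where 1.89% of all probe sets fell and 1.53% rose, 3.42% in either direction. Groups did not overlap for IVD, AKINBETA1 and ATG8E, as for 41.2% of all. AKINBETA1 stood at -0.72 ± 0.32 (adjusted p = 0.312) and IVD at -0.41 ± 0.18 (adjusted p = 0.313), the 2 with an unadjusted p under 0.05. MCCA stood at -0.27 ± 0.44 (adjusted p = 0.875) and ATG8E at -0.11 ± 0.15 (adjusted p = 0.844). The direction of MCCA turned without replicate 1 of untreated dark wild type (0.41) or replicate 2 of the BL-treated seedlings (0.32).

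Whether BL altered the effect of light was tested as an interaction. It was negative for all 4 genes, at -0.64 ± 0.62 for MCCA, -0.56 ± 0.45 for AKINBETA1, -0.47 ± 0.26 for IVD and -0.21 ± 0.21 for ATG8E, each with an adjusted p of 1. Of all probe sets 45.7% had a negative value. In limma 0 of 17787 probe sets passed, with 662 at an unadjusted p under 0.05, none of them a member. The 95% interval of MCCA ran from -1.99 to 0.71 and that of IVD from -1.02 to 0.09. The larger fold of light with BL than without it is therefore within the error for each gene. MCCA turned to 0.04 without replicate 2 of untreated dark wild type, and AKINBETA1 to 0.01 without replicate 1 of untreated seedlings in light.

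Between dark-grown det2 and dark-grown wild type, 1 of the 4 genes passed, ATG8E. Genotype and array run cannot be told apart in this comparison. ATG8E was 1.88-fold higher (0.91 ± 0.15, adjusted p = 0.000568), and this held with each array left out, at 0.87 to 0.96. MCCA stood at 0.57 ± 0.44 (adjusted p = 0.329), AKINBETA1 at 0.13 ± 0.32 (adjusted p = 0.776) and IVD at -0.12 ± 0.18 (adjusted p = 0.634), and these 3 changed sign when 1 of the wild-type arrays was left out. Of all probe sets 19.2% were higher and 17.9% lower, 37.1% in either direction, so 1 of 4 is near the background. ATG8E was also the 1 gene of the 4 whose groups did not overlap, as did not 68.1% of all. The 8 photosynthesis genes were also higher in dark-grown det2, all 8 passing, with a median log2 change of 1.05, and their part in the value of ATG8E was not tested.

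**Figure D2:**
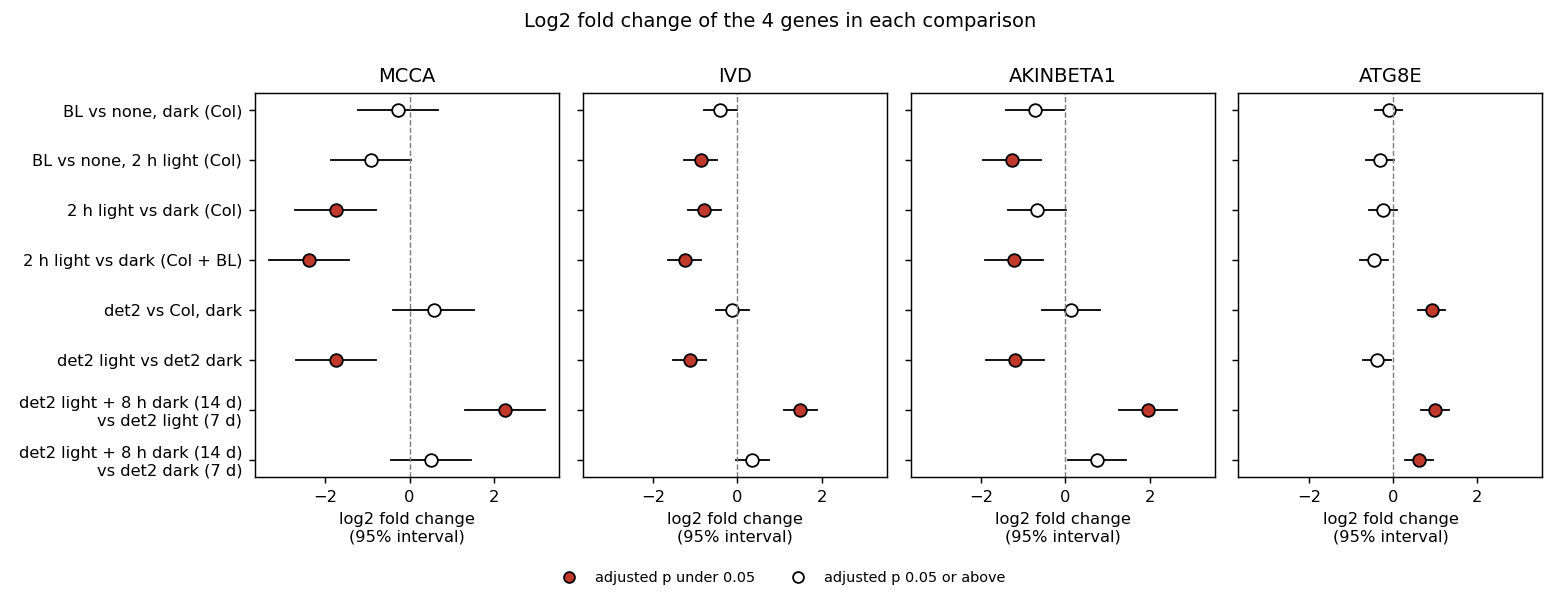
Log2 fold change of each gene (x axes, on the log2(signal + 16) scale, with 95% intervals) in 8 comparisons (y axis, named as the group on top of the fold change against the other). Red points passed at an adjusted p under 0.05 and white points did not. All 4 genes passed upward in dark-shifted det2 against light-grown det2, and 0 passed with BL in the dark.

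Of 23 listed genes of leucine and branched-chain amino acid breakdown, 14 had a named probe set, IVD and MCCA among them. In dark-shifted against light-grown det2, 5 of the 14 rose and the other 9 did not pass, where 5.98% of all probe sets rose, with a median log2 change of 0.23 against 0.03 over all probe sets. IVD and MCCA, counted among these 5, were chosen with earlier results of these data known. The others were MCCB (1.44 ± 0.36), ALDH6B2 (0.85 ± 0.19), an aldehyde dehydrogenase of valine breakdown, and MGL (0.63 ± 0.15), which encodes methionine gamma-lyase. MGL is a gene of methionine breakdown and is counted here only as listed. Leaving out any 1 of the 4 arrays lost MCCB, ALDH6B2 and MGL, whose adjusted p then reached 0.136, 0.0918 and 0.124. ETFQO, which passes electrons from IVD to ubiquinone, stood at 0.81 ± 0.32 (adjusted p = 0.129), and the electron carrier genes ETFALPHA and ETFBETA did not pass. The list therefore did not move as 1 block.

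MCCB, the partner subunit of MCCA, read 4274 and 4189 in dark-shifted det2, 1705 and 1412 in light-grown det2, and 5891 and 6476 in dark-grown det2. In Col seedlings it read 857.8 and 588.7 with BL and light, 1221 and 966.7 with light, 1746 and 936.9 with BL in the dark, and 2733 and 1104 in the dark. It was low in light within each genotype on average, as MCCA was, but its highest group was dark-grown det2. MCCB fell in light-grown against dark-grown det2 (-1.98 ± 0.36, adjusted p = 0.000856) and was 3.53-fold higher in dark-grown det2 than in dark-grown wild type (1.82 ± 0.36, adjusted p = 0.00178). In the latter comparison the list went both ways, with 2 of 14 genes higher and 3 lower. Of all probe sets 19.2% were higher and 17.9% lower. AT2G26800 had the largest fall of the list there (-1.10 ± 0.13, adjusted p = 6.14e-05). With light in wild type MCCB stood at -0.67 ± 0.36 (adjusted p = 0.225).

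In light-grown against dark-grown det2 the list gave 4 falls and 3 rises among 14, with a median of -0.09 against 0.01 over all. Of all probe sets 17.7% fell and 19.5% rose there, so the 3 rises are near the background. Among the 14 listed, MGL, a gene of methionine breakdown, had the largest fall (-2.26 ± 0.15, adjusted p = 3.59e-07), followed by MCCB, MCCA and IVD. The rises were those of D2HGDH, the gene of D-2-hydroxyglutarate dehydrogenase (0.87), AT4G31810 (0.68) and AT2G26800 (0.50), and each was lost without at least 1 array. With light in wild type 4 of the 14 fell and AT2G26800 rose (0.72 ± 0.13, adjusted p = 0.00201), where 9.76% of all probe sets fell and 10.1% rose, with a median of -0.47 against -0.12 over all. ALDH6B2 fell by 0.89 and MGL by 0.65 on the log2 scale, and MGL was lost without replicate 1 of dark wild type (adjusted p = 0.0672). With light in BL-treated seedlings the counts were again 4 and 1 (background 8.38% and 8.97%, median -0.56 against -0.06). The rise was again that of AT2G26800 (0.92 ± 0.13, adjusted p = 0.000355). MCCA and IVD, chosen with earlier results of these data known, are among the 4 falls in each of these comparisons. In all of them AT2G26800 rose while MCCA and IVD fell. With BL in light IVD, itself a member, was the only 1 of the 14 that passed, where 4.25% of all probe sets did.

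**Figure D3:**
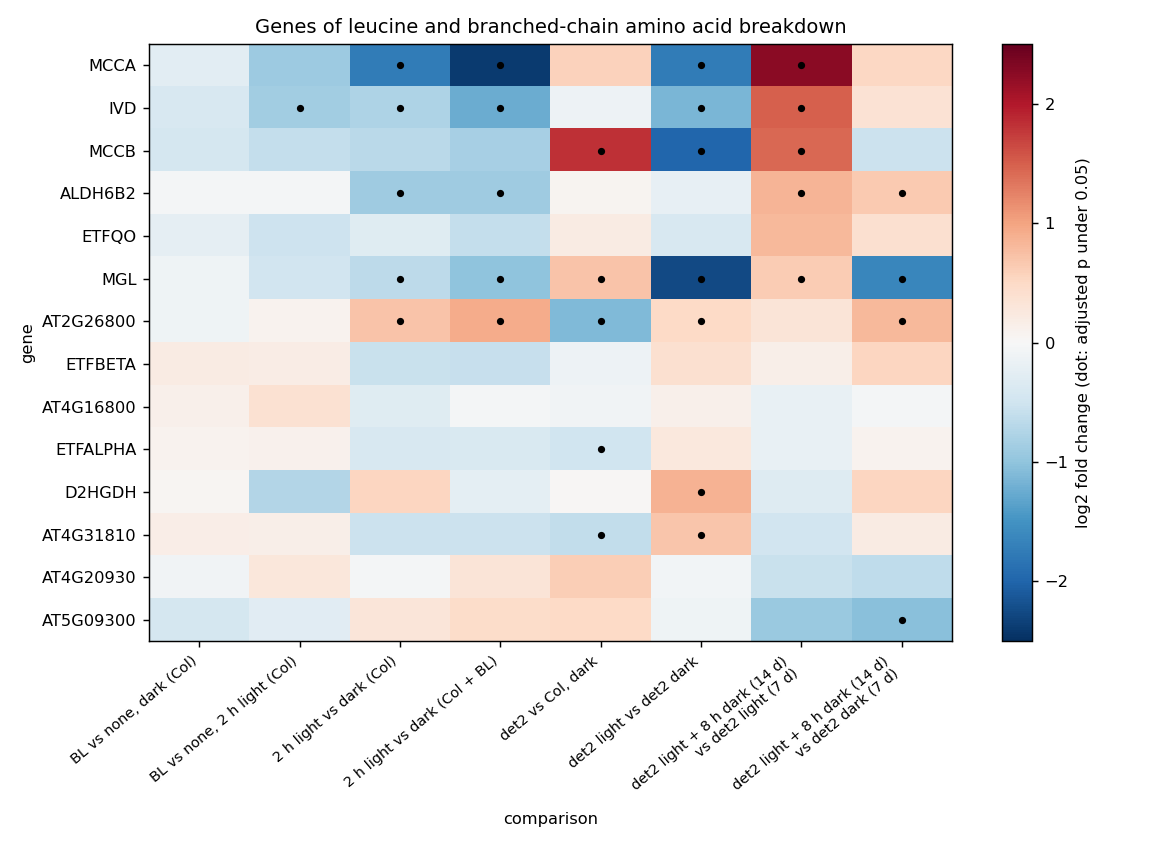
Log2 fold changes of 14 genes listed for leucine and branched-chain amino acid breakdown (rows) in 8 comparisons (columns). Colour is red for higher and blue for lower, with the scale ending at 2.5 either way. Dots mark an adjusted p under 0.05. MCCA, IVD and MCCB are red in dark-shifted against light-grown det2 and blue in light-grown against dark-grown det2, and lower rows differ in direction.

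Genes of leucine synthesis and its shared branched-chain pathway had 4 named members of 16. In dark-shifted against light-grown det2 AT2G31810 rose (1.03 ± 0.19, adjusted p = 0.00349) and the other 3 did not pass, with a median of -0.17. Of all probe sets 5.98% rose there. In light-grown against dark-grown det2 ATBCAT-5 (1.01 ± 0.21) and AT3G23940 (0.99 ± 0.22) rose, in the comparison where MCCA and IVD fell and 19.5% of all probe sets rose. AT2G31810 also fell with light in BL-treated wild type (adjusted p = 0.0024) and in untreated wild type (-0.84 ± 0.19, adjusted p = 0.00646). In dark-grown det2 against dark-grown wild type AT2G31810 was higher (0.56 ± 0.19, adjusted p = 0.0337) and ATBCAT-5 lower (-0.68 ± 0.21, adjusted p = 0.0242). Of all probe sets 19.2% were higher and 17.9% lower there. The calls in untreated wild type and in dark-grown det2 were lost with some arrays left out.

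AKINBETA1 was set beside the other 2 SnRK1 subunit genes with a named probe set, of 9 genes listed for the complex and its upstream kinases. The beta subunit gene KINbeta2 (AT4G16360) read 797.3 and 652.8 in dark-shifted det2 and 581.5 and 646.5 in light-grown det2. KINbeta3 (AT2G28060) read 543.8 and 478.1 in dark-shifted det2 and 490.3 and 429.9 in light-grown det2. Neither passed there (0.23 ± 0.17 and 0.15 ± 0.16), while AKINBETA1 rose by 1.96. In light-grown against dark-grown det2 KINbeta3 fell by 0.51 on the log2 scale (adjusted p = 0.022), lost without any of 3 of the 4 arrays (adjusted p up to 0.157), and KINbeta2 stood at -0.43 ± 0.17 (adjusted p = 0.0664). With BL in light they stood at 0.10 ± 0.17 and -0.19 ± 0.16, against -1.28 for AKINBETA1. Whether AKINBETA1 changed more than its relatives was not tested.

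All 9 genes of the ATG8 family had a named probe set and were tested. In dark-shifted against light-grown det2, 2 of 9 rose, where 5.98% of all probe sets did, with a family median of 0.24 against 0.03 over all. These were ATG8F, by 0.48 (adjusted p = 0.0463), and ATG8E, by 0.99, which was chosen with earlier results of these data known. ATG8F was lost without any of the 4 arrays (adjusted p of at least 0.152). In light-grown against dark-grown det2, 5 of 9 fell and the remaining 4, ATG8E among them, did not pass (median -0.57 against 0.01 over all). Of all probe sets 17.7% fell there. ATG8D fell by 0.68, APG8A by 0.64, ATG8G by 0.61 and ATG8C by 0.57. Each of the 5 was lost without at least 2 arrays, ATG8G without any of the 4 (adjusted p of at least 0.104).

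No difference between ATG8E and its relatives was tested. In dark-grown det2 against dark-grown wild type 3 of 9 were higher, where 19.2% of all probe sets were. These were ATG8B (1.11 ± 0.28, adjusted p = 0.00787), ATG8G (0.63) and ATG8E (0.91), the last chosen with earlier results of these data known. All 9 had a log2 change above 0, with a median of 0.26 against 0.08 over all. Of all probe sets 45.4% were below 0 there. ATG8G was lost without replicate 1 of dark wild type (adjusted p = 0.319) and without either det2 array. In dark-shifted against dark-grown det2 ATG8E was higher, whereas ATG8G fell by 0.77 and ATG8D fell by 0.52, both lost without any of the 4 arrays (adjusted p up to 0.108 and 0.188). With light in wild type ATG8F fell (-0.88 ± 0.14, adjusted p = 0.000745), at 3339 and 2825 in light against 5397 and 5945 in the dark. ATG8G also fell there (-0.75 ± 0.21, adjusted p = 0.0259), lost without replicate 2 of dark wild type (adjusted p = 0.229) or replicate 1 of those in light.

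**Figure D4:**
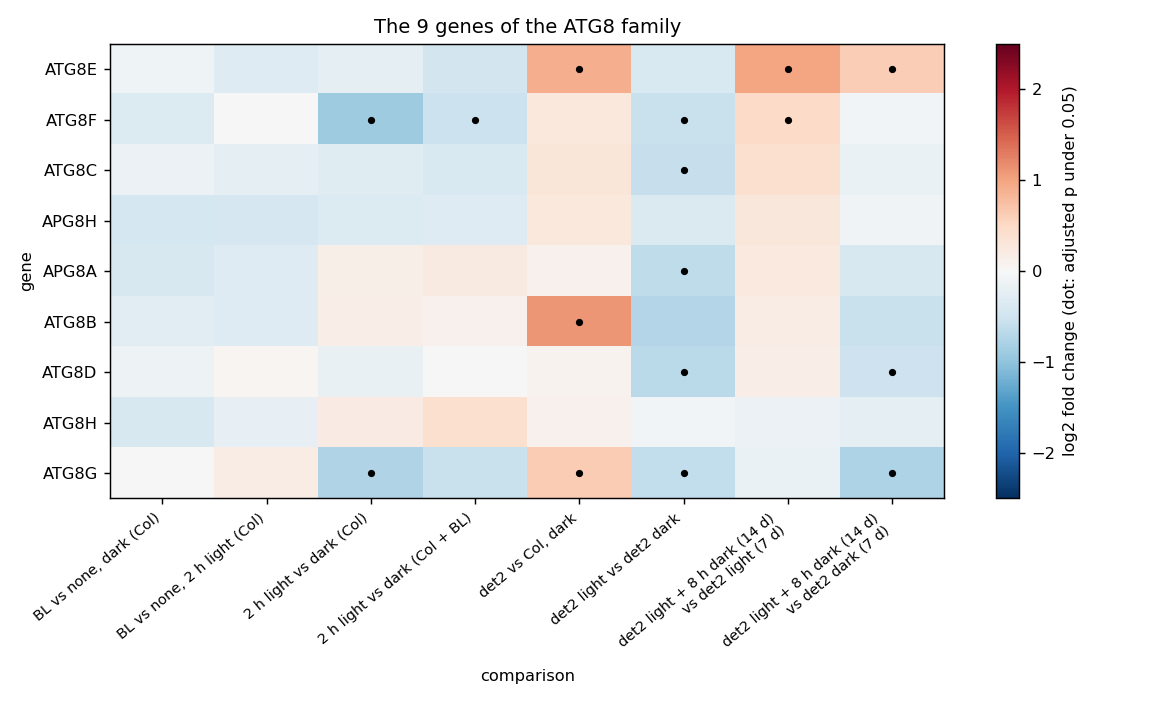
Log2 fold changes (colour, red higher and blue lower, scale ending at 2.5 either way) of the 9 ATG8 family genes (rows) in 8 comparisons (columns), with dots for an adjusted p under 0.05. ATG8E heads the rows at 0.99 in dark-shifted against light-grown det2, and 5 of the other genes, but not ATG8E, carry a dot in light-grown against dark-grown det2.

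Of 35 listed genes of other autophagy steps, 10 had a named probe set. In dark-grown det2 against dark-grown wild type 1 of the 10 was higher and 2 lower, where 19.2% of all probe sets were higher and 17.9% lower. AT3G59950 was lower (-0.59 ± 0.22, adjusted p = 0.0486), a call lost with some arrays left out. ATG3, whose product joins ATG8 to lipid, fell in dark-grown det2 against dark-grown wild type (-0.55 ± 0.19, adjusted p = 0.034), lost without either det2 array or replicate 1 of wild type (adjusted p up to 0.166). AT1G49180 was higher there (1.15 ± 0.30, adjusted p = 0.00969), lost without replicate 1 of det2 or replicate 2 of wild type (adjusted p up to 0.0924). In dark-shifted against light-grown det2, where ATG8E rose, none of the 10 passed in limma, the largest value being 0.60 ± 0.30 for AT1G49180 (adjusted p = 0.235). Of all probe sets 12.4% passed there in either direction, so a count of 0 in 10 is near the background.

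The remaining lists had few named genes. Of 24 dark and sugar starvation markers 3 had a named probe set. AT3G15450 was the marker that changed in most comparisons. It read 19234 and 16648 in dark-shifted det2, 9360 and 10066 in light-grown det2, and 13200 and 12442 in dark-grown det2. Col seedlings gave 924.8 and 954.7 with BL and light, 3535 and 2003 with light, 4920 and 4860 with BL in the dark, and 8617 and 6905 in the dark. As for the 4 genes above, its highest group was dark-shifted det2 and its lowest was wild type with BL and light. It fell with light (-1.53 ± 0.21), with light in BL-treated seedlings (-2.36 ± 0.21) and with BL in light (-1.49 ± 0.21, adjusted p = 0.00169), each with any array left out. It rose in dark-shifted against light-grown det2 (0.88 ± 0.21, adjusted p = 0.0143), lost without any of the 4 arrays. In dark-grown det2 it was above dark-grown wild type (0.73 ± 0.21, adjusted p = 0.0148), lost without any of 3 of the 4 arrays. In light-grown against dark-grown det2 it did not pass. AT5G38710 read 111.6 and 97.7 in dark-shifted det2, 147.7 and 140.5 in light-grown det2, and 37.6 and 80.6 in dark-grown det2. It rose in light-grown against dark-grown det2 (1.15 ± 0.35, adjusted p = 0.0193), where MCCA, IVD and AKINBETA1 fell, and was lost without any of 3 of the 4 arrays (adjusted p up to 0.16). In dark-shifted against light-grown det2 it stood at -0.41 ± 0.35 (adjusted p = 0.53). PPDK, the gene of pyruvate orthophosphate dikinase, was higher in dark-shifted than in dark-grown det2 (0.90 ± 0.27, adjusted p = 0.0252), lost without any of the 4 arrays.

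BZIP53, a bZIP transcription factor gene, rose in dark-shifted against light-grown det2 (0.89 ± 0.14, adjusted p = 0.0013) and fell in light-grown against dark-grown det2 (-0.66 ± 0.14, adjusted p = 0.00238), with any array left out. The other listed bZIP gene with a named probe set, bZIP44, read 570.1 and 622.5 in dark-shifted det2, against 828.5 and 920.8 in light-grown det2. It did not pass there (adjusted p = 0.234). The 3 genes of fatty acid breakdown and the glyoxylate cycle with a named probe set went both ways in dark-shifted against light-grown det2. SDP1, a lipase gene of oil breakdown, rose (0.69 ± 0.20, adjusted p = 0.0399) and AIM1, a gene of peroxisomal beta-oxidation, fell (-0.53 ± 0.14, adjusted p = 0.0223), both lost without any of the 4 arrays. ICL, the isocitrate lyase gene, read 6.40 and 17.1 in dark-shifted det2, against 845.7 and 792.1 in light-grown det2, and fell (adjusted p = 1.13e-07). Its readings after the dark shift are near or under the added constant of 16, so the size of its fitted change depends on that constant and is not given.

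Genes most like each member were sought among 9784 other tested genes by Pearson correlation of log2(signal + 16) over the 14 arrays. The arrays share groups and replicates, so these values describe and do not test. MCCA was most like AT5G19120 (r = 0.962), AT1G05840 (0.960), AT1G75180 (0.947), AT1G33050 and AT4G28260 (0.945 each). IVD was most like AT1G05840 (0.974), AT5G32440 (0.946), AT5G16110 (0.936), AKINBETA1 (0.933) and AT5G56140 (0.921). AKINBETA1 was most like AT2G40420 (0.955), AT1G05840 (0.944), AT2G20670 (0.943), AT2G37480 (0.942) and AT1G33050 (0.940). AT1G05840 thus stood in the top 5 of these 3 members.

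ATG8E was most like other genes, Fes1C (0.963), FIP2 (0.961), AT3G47610 (0.960), AT5G53360 (0.958) and AT1G49170 (0.957). Between members, r over 14 arrays was 0.913 for MCCA and IVD, 0.925 for MCCA and AKINBETA1, and 0.933 for IVD and AKINBETA1. With ATG8E it was 0.740 for MCCA, 0.728 for AKINBETA1 and 0.601 for IVD. Over the 8 wild-type arrays alone ATG8E correlated at 0.821 with IVD, 0.640 with MCCA and 0.621 with AKINBETA1.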

How the data were processed

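Values are intensity signals on a linear scale, deposited by the authors as 1 table of 14 arrays. The submitters' processing notes name MAS5 and limma without versions. The deposited signals had the same trimmed mean of 500 on every array (2% removed at each end). Detection calls and probe-level data were not used here, and 2 arrays per group limit precision.

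Signals were scaled again to that trimmed mean. Leaving out 64 control probe sets and 4959 with a mean under 50 left 17787. log2(signal + 16) was fitted with 1 mean per group over all 14 arrays in limma 3.58.1 (R 4.3.3), with a variance trend, and p-values were Benjamini-Hochberg adjusted within each of 9 comparisons at a threshold of 0.05. The fit was tested on simulated data with independent errors and 1 spread per probe set in all groups. That test did not cover the unequal spread of the genotypes or the correlated wild-type replicates. Figures used matplotlib 3.10.9.

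Gene names came from the platform annotation (13513 probe sets with 1 gene, 503 with several, 8794 unnamed), with symbols updated through RefSeq (TAIR10.1) for 13436. For several probe sets of a gene, the one with the highest mean was used. Members and 10 gene lists (154 genes) were chosen with earlier results of these data known. Named genes were the 4 members, from each list up to 4 passing genes with the largest change per comparison (2 where none passed), and the 5 genes most like each member. Others were named after their values were seen (ETFQO, ETFALPHA, ETFBETA, KINbeta2, KINbeta3, D2HGDH, AT4G31810, and further passing genes of the lists).

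Replicate numbers come from the titles. Deviations of same-numbered arrays correlated between wild-type groups (6 correlations, 0.226 to 0.429) but not between det2 groups (3, -0.033 to 0.016) or across genotypes (12, -0.048 to 0.042). The numbers were read as pairing wild-type arrays, and the replicate block is given beside wild-type results where it changes a call.

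Alternatives were pseudocounts of 1 and 64, no filter, quantile normalization, the replicate block, arrays of 1 genotype with and without the block, no variance trend, and each array left out.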

Additional observations from a re-analysis of the deposited data

How the results depend on the processing

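Of the 16 member changes that passed, 9 kept direction and call under every alternative run, and in 190 checks 24 lost the call and 0 turned. Of the 20 that did not pass, 14 of 250 checks passed and 7 turned sign. The 7 turns each came from leaving out 1 wild-type array. They were MCCA with BL in the dark (0.32 and 0.41, range -0.94 to 0.41), the interaction of MCCA (-1.31 to 0.036) and AKINBETA1 (-1.13 to 0.011), and in dark-grown det2 against wild type IVD (-0.42 to 0.18), MCCA (-0.10 to 1.25) and AKINBETA1 (-0.31 to 0.57). Members passing with light in wild type went from 2 to 0 with wild-type arrays alone. With BL in light they went from 2 to 1 without the filter, under quantile normalization or without the variance trend, and to 0 with wild-type arrays alone. In dark-shifted against dark-grown det2 they went from 1 to 2 with the replicate block and to 4 with det2 arrays alone, with or without the block. The replicate block over all arrays also moved ATG8E past the threshold with light and BL (adjusted p = 0.0484) and changed no other member call.

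With wild-type arrays alone the probe sets passing were 175 with BL in the dark, 2253 with light, 214 with BL in light and 1979 with light in BL-treated seedlings, against 608, 3526, 756 and 3087. With det2 arrays alone the dark shift gave 4767 (4771 with the replicate block), against 2202. The interaction gave 2 with a pseudocount of 64, 2 with wild-type arrays and the replicate block, and 1 without the variance trend. Leaving out 1 array gave 184 to 526 with BL in the dark, 299 to 965 with BL in light, 2658 to 3008 with light, 1989 to 2630 with light and BL, 4658 to 5518 for dark-grown det2 against wild type, 4394 to 4965 for light growth, 791 to 905 for the dark shift, and 2972 to 3631 for dark-shifted against dark-grown det2. Members passing then numbered 0 to 3 with light, 0 to 2 with BL in light, 2 to 3 with light and BL, 2 to 3 for light growth and 0 to 1 for dark-shifted against dark-grown det2. Fewer arrays leave fewer degrees of freedom, while the dark shift count rose with det2 arrays alone. Replicates differed less in det2 groups than in wild-type groups (median absolute log2 difference 0.140 to 0.190 against 0.228 to 0.285). The part of either in these counts was not tested. Quantile normalization moved the median of all probe sets by at most 0.079 on the log2 scale.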
